A study of Mus musculus with 15 samples.

Results

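The genes that encode the nuclear subunits of the mitochondrial respiratory chain and ATP synthase were followed in mouse lung tumours and in lungs of the same genotype at an earlier age. They were taken by symbol: every gene whose annotated name begins as a subunit of complex I (Nduf), II (Sdh), III (Uqcr), IV (Cox) or V (Atp5) and that has a probe set naming it alone. This gave 81 genes of 18193, with 35 in complex I, 4 in complex II, 8 in complex III, 17 in complex IV and 17 in complex V. Cox7b, Ndufa11, Ndufb4b, Ndufb4c and Ndufs6 were not analysed here.

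Complexes I and II pass electrons from NADH and succinate to coenzyme Q, complex III passes them on to cytochrome c, and complex IV hands them to oxygen. Complexes I, III and IV pump protons as they do so, and complex V uses the proton gradient to make ATP. Several small subunits of complex IV exist as a broadly expressed isoform and a second one found in heart and skeletal muscle, and in the case of Cox7a1 and Cox8b also in brown fat. Respiratory chain transcripts are abundant in most cells of the lung, so a bulk value mixes all of its cell types. In bulk tissue, a change in the number of cells of a type and a change in RNA per cell cannot be told apart.

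RNA was measured on single-colour Affymetrix arrays, with 3 arrays in each group, in mice of mixed background on normal feed without treatment. The groups were lung tumours at 12 months, each sample a piece of a single tumour, wild type lung at 12 months, mutant lung at 7 months and wild type lung at 7 months. Tumours and mutant lungs have the same genotype, which includes a deletion of Smad4, and what follows belongs to the genotype as a whole. The series describes the 7-month lungs as taken before tumours start, and the promoter or Cre line behind the deletion was not given in the sources used here. The deposited values are linear probe set intensities. They were compared as log2(intensity + 16) with limma, and a gene was called at a Benjamini-Hochberg adjusted p under 0.05 over all 18193 genes. The labels do not say which arrays are separate animals, so the p-values measure the spread between these samples, which may be technical. The titles of the 12-month arrays, except tumour array 1, each carry a different number. The wild type arrays at 12 months differ in sex, as given below, so they are not all of the same animal.

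Array medians lay between 90.9 and 99.5. Control probe sets for ribosomal RNA averaged 1121 to 2036 on the tumour arrays and 5492 to 6933 on the wild type arrays of that age, against 6556 to 8084 on mutant and 6866 to 7032 on wild type arrays at 7 months. The ratio of 3' to 5' Gapdh probe sets, a sign of RNA quality, was 1.22 to 1.55 on tumour and 1.35 to 1.38 on wild type arrays at 12 months. At 7 months it was 1.61 to 1.99 on mutant arrays and 1.63, 1.80 and 2.45 on the wild type arrays, highest on array 3. At 12 months all tumour arrays and wild type array 2 carried Y-linked transcripts, while wild type arrays 1 and 3 carried Xist. Of the 6 arrays at 7 months compared here, 5 carried both kinds at high level, that is RNA of both sexes. The other, wild type array 3, carried Y-linked transcripts, with Xist at 48.1. Alveolar type 2 markers, which identify lung, were bright in every group, with sums of 36843 to 66541 over 8 genes in tumours, against 62058 to 65114 in wild type lungs at 12 months. Of all genes, 9.23% were called higher and 6.02% lower in tumours, and 6.42% higher and 1.39% lower in mutant lungs. Endothelial markers were called lower in 5 of 10 genes in tumours and in 3 of 10 in mutant lungs, and markers of motile cilia were called higher in 14 of 15 and 13 of 15. Macrophage markers were called lower in 4 of 8 genes in tumours (median log2 difference -1.19) and in 0 of 8 in mutants, alveolar type 1 markers lower in 2 of 8 at each age, and club cell markers higher in 3 of 7 in tumours and 4 of 7 in mutants. The part of these differences in the results below was not tested, except where values are given with and without arrays.

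At 12 months, 7 of the 81 subunit genes rose in tumours and 0 fell. That is 8.64% of the members, beside 9.23% of all genes called higher and 6.02% called lower in this comparison, so the share of called members was near the background. In a fit of all 15 arrays it was 23.5%, against 15% of all genes, and with a variance trend and robust fitting 14.8%, against 10.2%. With each array left out in turn it lay between 2.47% and 4.94%, against 3.42% to 10.4% of all genes. The 7 were the muscle isoforms Cox6a2, Cox7a1 and Cox8b of complex IV, by 2.58-fold to 2.64-fold, and Ndufs4, Uqcrq, Atp5g1 and Atp5md, by 1.27-fold to 1.31-fold. Most members were slightly higher in tumours: 74 of 81 had a log2 difference above 0, against 51.1% of all genes, with a median of 0.13 against 0.01. Among the 3388 genes with a mean log2 of 10 or more, where 67 members lie, the median was -0.04. A mean log2 below 8 was found in 9 members. Ndufb1, Ndufb4 and Cox7c, which are not isoforms of restricted tissue, were among them, at 6.18, 5.53 and 6.96. These dim members are counted in the shares and medians given here. In 44 members (54.3%) the 3 tumour values all lay above the 3 wild type values, a pattern seen in 20.5% of all genes, and in 3 members (Ndufa4l2, Cox7a2l and Atp5h) they all lay below, against 17% of all genes.

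At 7 months, 6 members rose in mutant lungs and 0 fell. That is 7.41% of the members, beside 6.42% of all genes called higher and 1.39% called lower. This share depended on the settings: it was 21% with a pseudocount of 64 and 25.9% with a variance trend and robust fitting, against 7.45% and 7.52% of all genes. In a fit of the 2 groups alone and without mutant array 2 it was 0%, against 4.01% and 4.35% of all genes. The 6 were Uqcrq, Uqcr11, Atp5e, Atp5mpl, Sdhd and Ndufa1, by 1.2-fold to 1.3-fold, and only Uqcrq was called at both ages. Again 77 of 81 log2 differences were above 0, against 51.4% of all genes, and the median was 0.13 against 0.01. The groups did not overlap, with mutants higher, in 38 members (46.9%), against 15.2% of all genes. They did not overlap with mutants lower in 1 member, Cox7b2, against 10.9% of all genes. Centring every array on its median lowered the log2 differences of all genes: their median then stood at -0.09 in tumours and -0.08 in mutants. Under that scaling 49 members were above 0 in tumours and 58 in mutants, and the member median stayed 0.12 above that of all genes in tumours and 0.13 above it in mutants.

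**Figure D1:**
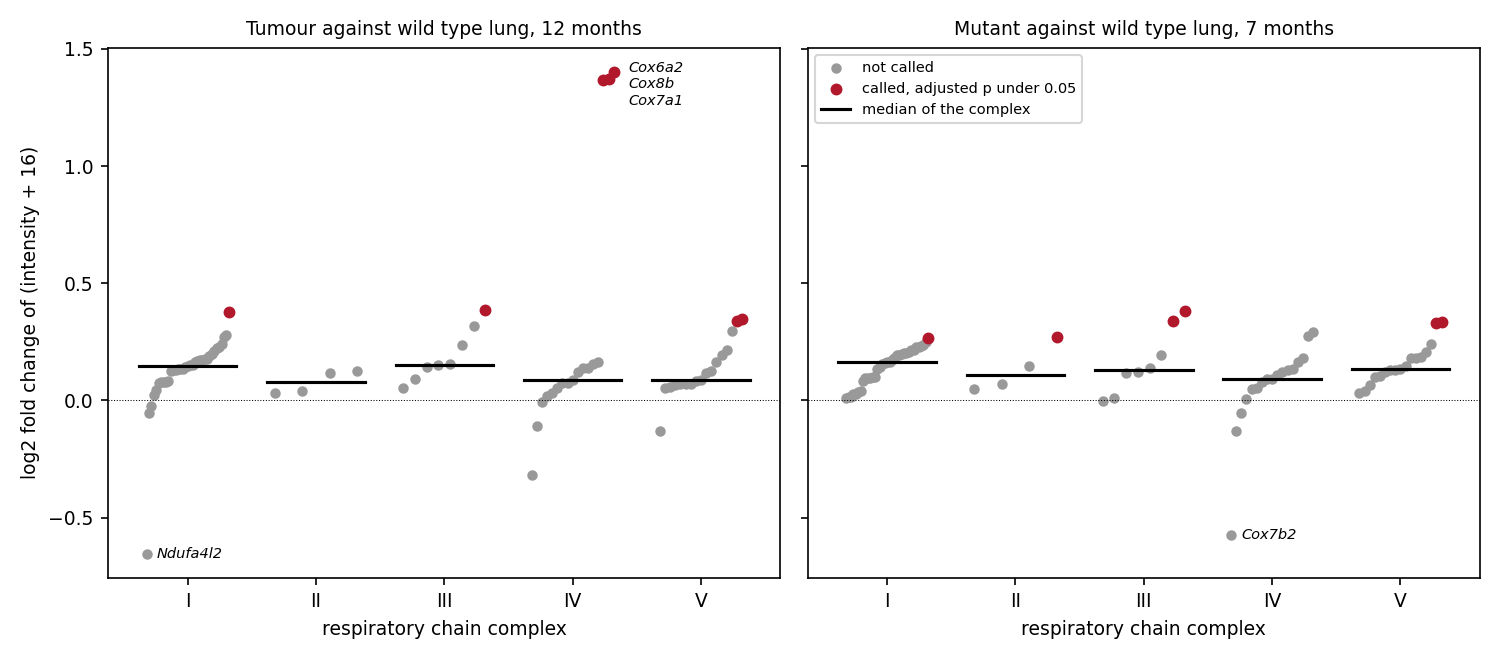
Log2 fold change of (intensity + 16) of each of the 81 subunit genes, grouped by complex, for tumour against wild type lung at 12 months (left) and mutant against wild type lung at 7 months (right). Red points were called at an adjusted p under 0.05, bars are the median of a complex, and the 3 muscle isoforms of complex IV stand alone near 1.4 at 12 months.

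The largest changes belonged to the isoforms that replace a broadly expressed subunit in striated muscle. Cox6a2, the muscle form of a regulatory subunit of complex IV, had intensities of 1087, 1707 and 1490 in tumours, against 452, 612 and 511 in wild type lungs. All tumours were above all wild type lungs, and the means were 1428 ± 315 in tumours and 525 ± 80.9 in wild type (SD, n = 3 each). The log2 difference was 1.40 ± 0.19 (SE; 2.64-fold, limma adjusted p = 0.0103), and a second probe set of the gene gave 3-fold (adjusted p = 0.011 over all probe sets).

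Cox7a1, the muscle form of another small complex IV subunit, had intensities of 478, 545 and 583 in tumours, against 155, 261 and 187 in wild type lungs. The groups did not overlap. The log2 difference was 1.37 ± 0.19 (2.58-fold, limma adjusted p = 0.0103). Cox8b, the muscle form of the smallest complex IV subunit, had 388, 492 and 502 in tumours, against 131, 236 and 150 in wild type lungs. Its log2 difference was 1.37 ± 0.22 (2.59-fold, limma adjusted p = 0.0142), again without overlap. Against wild type array 2 alone, the array that shares its sex with the tumours and has the highest wild type value of all 3 genes, the log2 differences were smaller. These p-values set 3 tumours against 1 wild type array, whose spread was assumed to be that of the other groups in a fit of all 15 arrays. Cox6a2 then stood at 1.18 (limma adjusted p = 0.0238), Cox7a1 at 0.99 (0.152) and Cox8b at 0.91 (0.113), so Cox7a1 and Cox8b were not called. Cox8b also lost it without wild type array 3 (adjusted p = 0.0589) or tumour array 3 (0.0533).

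At 7 months the same 3 genes were not called. Cox6a2 had 634, 726 and 571 in mutant lungs, against 580, 382 and 656 in wild type. Cox7a1 had 230, 268 and 176 in mutant lungs, against 197, 96.7 and 289 in wild type. Cox8b had 169, 251 and 140 in mutant lungs, against 169, 114 and 249 in wild type. In each gene the groups overlapped, with wild type array 2 the lowest and wild type array 3 the highest of its group. The 95% intervals of the log2 difference were wide: -0.18 to 0.73 for Cox6a2, -0.46 to 1.05 for Cox7a1 and -0.52 to 0.70 for Cox8b.

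The 250 bases before the annotated start of Cox7a1 and Cox8b are shown because these 2 genes rose together in tumours and the promoters of both are in the table used (RefSeq, GRCm38.p6). Capitals mark the E box CANNTG, a motif bound by basic helix-loop-helix factors such as the myogenic ones.
Cox7a1 (chr7:30183921-30184170, + strand): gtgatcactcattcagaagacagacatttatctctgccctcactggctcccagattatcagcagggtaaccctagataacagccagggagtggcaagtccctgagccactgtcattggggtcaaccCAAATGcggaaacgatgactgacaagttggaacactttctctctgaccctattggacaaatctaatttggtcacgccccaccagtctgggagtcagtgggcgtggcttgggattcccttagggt
Cox8b (chr7:140900447-140900696, - strand): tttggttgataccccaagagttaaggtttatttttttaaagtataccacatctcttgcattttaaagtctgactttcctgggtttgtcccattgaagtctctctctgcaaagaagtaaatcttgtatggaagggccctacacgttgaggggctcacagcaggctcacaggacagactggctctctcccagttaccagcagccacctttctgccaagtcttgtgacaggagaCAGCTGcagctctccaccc
Each window holds 1 E box. Such a match was found in the windows of 66.3% of all 17491 protein-coding genes. None of the other motifs searched (listed with the 7-month genes) had a match in either window.

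**Figure D2:**
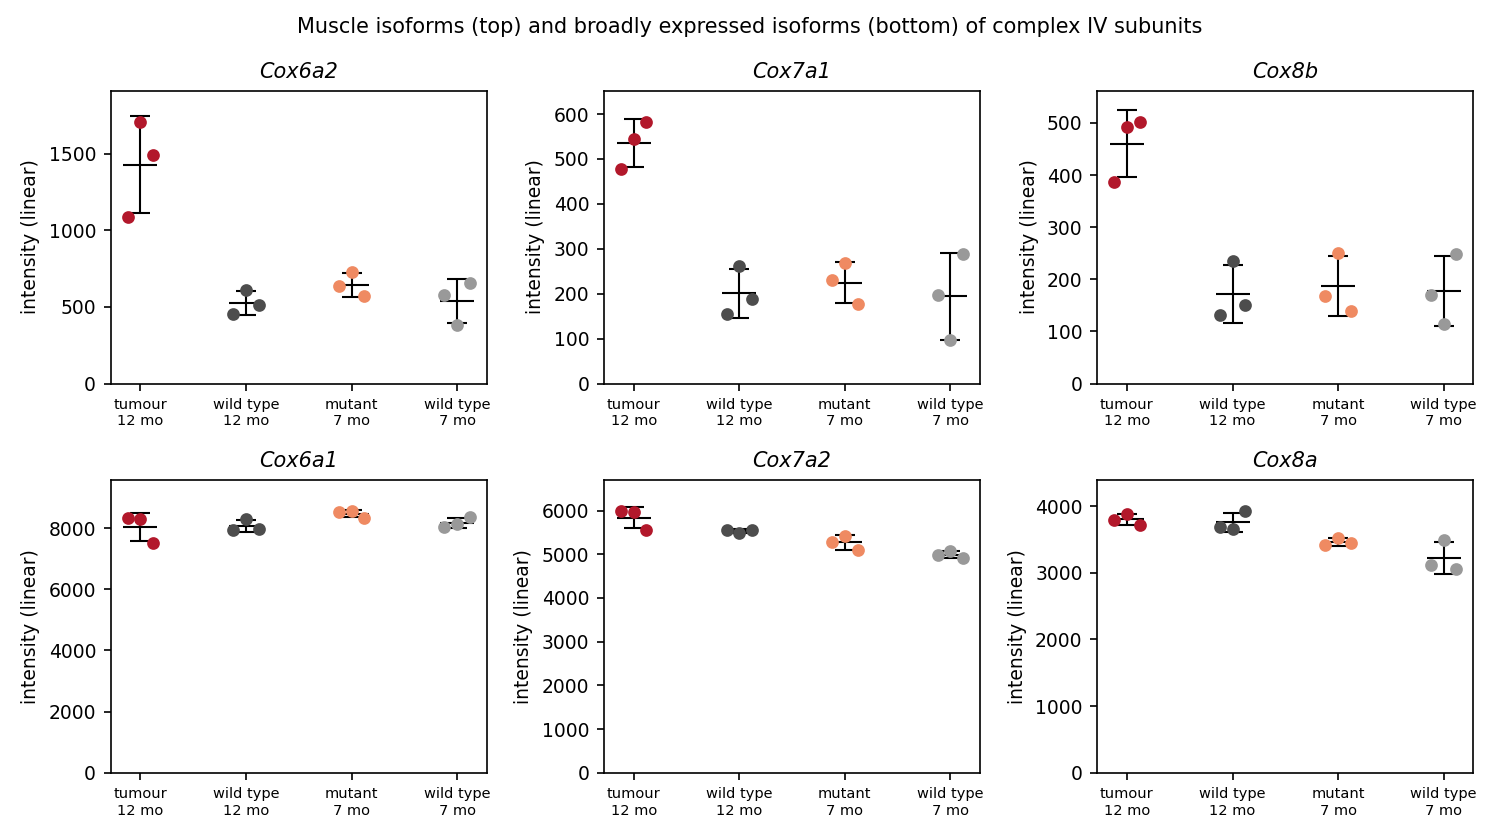
Linear intensity on each array (points), with mean and SD (bars), of 3 muscle isoforms of complex IV subunits (top) and of the broadly expressed isoforms of the same subunits (bottom) in tumours and wild type lung at 12 months and mutant and wild type lung at 7 months. The tumours stand above every other array for Cox6a2, Cox7a1 and Cox8b, while Cox6a1, Cox7a2 and Cox8a differ little between groups. Each panel has its own axis from 0, and probe sets of different genes are not comparable in level.

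None of the 7 broad isoforms measured (Cox4i1, Cox6a1, Cox6b1, Cox7a2, Cox7a2l, Cox8a and Ndufa4) was called at either age, while 1 of them had an unadjusted p under 0.05 at each age (Ndufa4 in tumours and Cox6b1 in mutants). Cox6a1, the partner of Cox6a2, had 8315, 8289 and 7502 in tumours, against 7931, 8300 and 7959 in wild type lungs. Its log2 difference was -0.01 with a 95% interval of -0.20 to 0.19. Cox7a2, the partner of Cox7a1, had a log2 difference of 0.08 (95% interval -0.10 to 0.26), and Cox8a, the partner of Cox8b, one of 0.02 (-0.16 to 0.20). Every interval of a partner lay below that of its muscle form. Cox7a2l, whose product joins complexes III and IV into supercomplexes and is not a subunit in the usual sense, had a log2 difference of -0.11 in tumours and -0.05 in mutants (adjusted p = 0.382 and 0.664). Ndufa4, named for complex I but now placed in complex IV, had a difference of 0.22 in tumours and 0.13 in mutants (adjusted p = 0.144 and 0.271).

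The increase of the 3 muscle isoforms ran alongside markers of heart muscle. All 12 cardiac muscle markers were called higher in tumours, with a median log2 difference of 1.34, beside 1.40, 1.37 and 1.37 for the isoforms. Sln, a regulator of the calcium pump in atrial muscle, was 3.35-fold higher, Tnni3, cardiac troponin I, 2.81-fold, and Myl7, the atrial myosin light chain, 2.19-fold (limma adjusted p = 0.00383, 0.00623 and 0.00681). Summed over the 12 markers, the intensity was 35516, 35210 and 40203 on the tumour arrays, against 13636, 19798 and 14944 on the wild type arrays. Wild type array 2 was the highest of its group in this sum and in the sum of Cox6a2, Cox7a1 and Cox8b, which was 1953, 2744 and 2574 in tumours, against 738, 1110 and 849 in wild type lungs. Among the tumour arrays the order differed: array 2 was the highest in the isoform sum and the lowest in the cardiac sum.

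At 7 months, 1 of the 12 cardiac markers was called higher, Nppa, the atrial natriuretic peptide, at 293, 937 and 308 in mutant lungs, against 8.56, 7.86 and 66.5 in wild type (limma adjusted p = 0.011). Of the wild type values 2 lay below the pseudocount of 16, so no fold is given. The cardiac sum was 16091, 20641 and 12833 on the mutant arrays, against 16746, 9743 and 21424 on the wild type arrays. The isoform sum was 1033, 1245 and 887 on the mutant arrays, against 946, 593 and 1193 on the wild type arrays. In both sums array 2 was the highest mutant and array 3 the lowest, and among wild type arrays at 7 months array 3 was the highest and array 2 the lowest. Wild type array 3 is also the one with the highest Gapdh ratio and, of those compared at 7 months, the one without high Xist. Wild type array 2 at 12 months, the highest of its group in both sums, was likewise the one with Y-linked transcripts. The part of the RNA quality, of sex and of cardiac muscle in the isoform values was not tested.

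**Figure D3:**
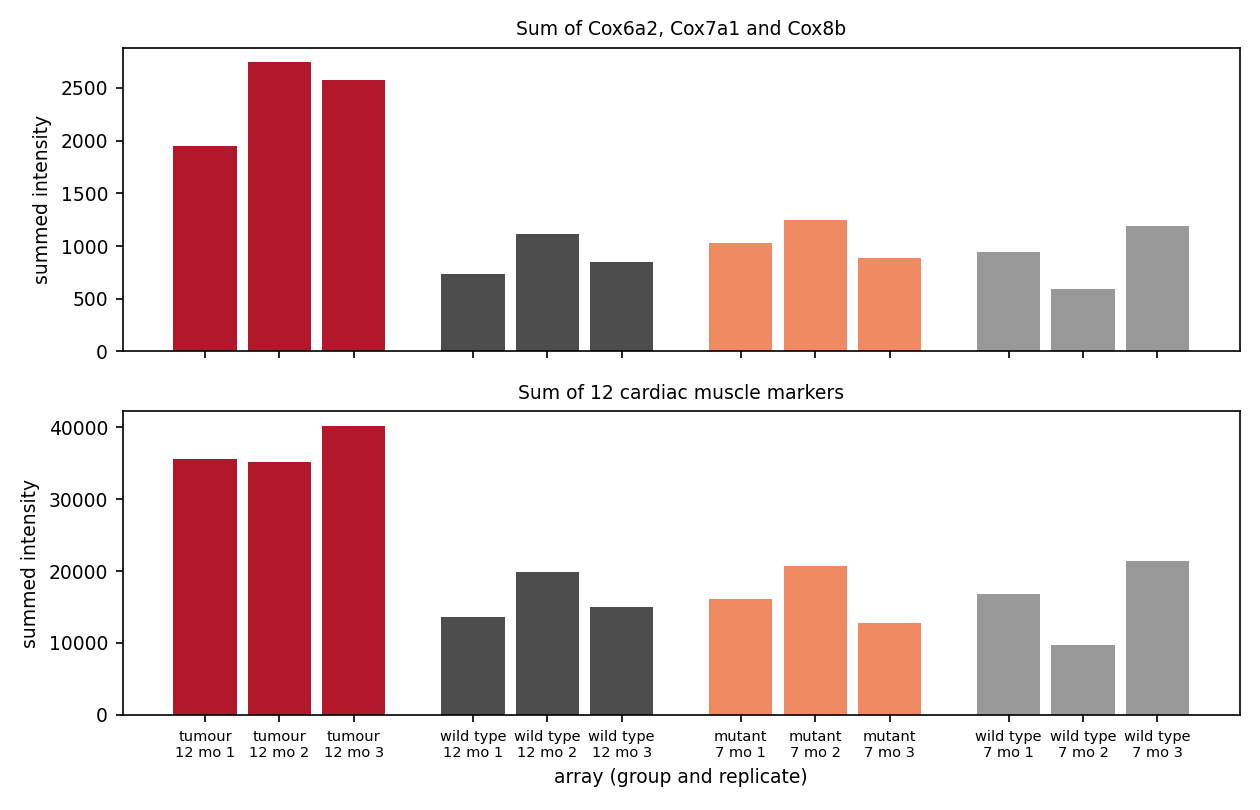
Summed linear intensity of Cox6a2, Cox7a1 and Cox8b (top) and of 12 cardiac muscle markers (bottom) on each array, with 3 arrays of tumour and of wild type lung at 12 months and of mutant and wild type lung at 7 months. Both sums are highest on the 3 tumour arrays, and within wild type and mutant groups the same array is highest in both. Among the 3 tumour arrays, the one highest in the top panel is the lowest in the bottom panel.

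Markers of skeletal muscle and fat were read in the same way. Over all genes, 9.23% were called higher in tumours and 6.42% in mutants. Of 9 skeletal muscle markers only Ckm, muscle creatine kinase, was called in tumours (2.29-fold, limma adjusted p = 0.0103). The fast myosin Myh4 had 8.34, 8.97 and 14.3 in tumours, against 12.1, 17.8 and 11.3 in wild type lungs, with 5 of the 6 arrays below the pseudocount of 16. The skeletal sum was 770, 858 and 896 in tumours, against 630, 703 and 620 in wild type lungs. Ckm alone made up 355, 383 and 446 of it in tumours, against 134, 205 and 156 in wild type lungs. Acta1, the next brightest, had 183, 268 and 178 in tumours, against 291, 283 and 255 in wild type lungs. Of the 9 markers, 6 had a log2 difference above 0 in tumours, with a median of 0.10. Of 5 brown fat markers, 2 were called higher in tumours, Cox8b itself and Cidea, a lipid droplet protein, at 933, 570 and 619 in tumours, against 125, 233 and 218 in wild type lungs. Cidea was also the 1 brown fat marker called at 7 months, where Cox8b was not, with 323, 382 and 340 in mutant lungs, against 238, 212 and 179 in wild type (1.62-fold, limma adjusted p = 0.00472). Ucp1, the uncoupling protein that defines brown fat, had 18.3, 119 and 140 in tumours, against 10.6, 108 and 59.1 in wild type lungs (limma adjusted p = 0.703). The brown fat sum without Cox8b was 1154, 930 and 1011 in tumours, against 328, 524 and 443 in wild type lungs. Cidea alone made up 933, 570 and 619 of it in tumours, against 125, 233 and 218 in wild type lungs. Elovl3, another of the markers, had 26.2, 57.2 and 61.7 in tumours, against 45.1, 48.4 and 59.3 in wild type lungs. A log2 difference above 0 in tumours was seen in 4 of the 5 markers, with a median of 0.52. The part of brown fat in Cox8b was not tested. Of 4 white fat markers, 1 was called higher in tumours and 0 in mutants. In tumours, 3 of them lay above all wild type values and 1 below, patterns seen in 20.5% and 17% of all genes. Lep, 1 of the 3, was dim, at 39, 46 and 64 in tumours, against 37, 38 and 38 in wild type lungs. The white fat sum was 1493, 2466 and 2529 in tumours, against 1224, 1114 and 1160 in wild type lungs. At 7 months it was 819, 1193 and 693 in mutant lungs, against 578, 1443 and 965 in wild type. Its part in the isoform values was not tested.

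Of 11 inner membrane carriers, uncoupling proteins and mitochondrial creatine kinases, 2 were called higher in tumours and 1 in mutant lungs, and 0 lower. That is 18.2% and 9.09%, beside 9.23% and 6.42% of all genes called higher. The sarcomeric mitochondrial creatine kinase Ckmt2 was 3.25-fold higher in tumours (limma adjusted p = 0.0113) and not called in mutants. Ckmt1, the form found outside striated muscle, had 1052, 884 and 1061 in tumours, against 219, 259 and 286 in wild type lungs (3.76-fold, limma adjusted p = 0.00304). It had 471, 581 and 491 in mutant lungs, against 157, 162 and 206 in wild type (2.79-fold, limma adjusted p = 0.00018). So both creatine kinases were called in tumours, and Ckmt1 at both ages. Ucp3, an uncoupling protein of muscle and brown fat, had 95.4, 123 and 102 in tumours, against 142, 160 and 224 in wild type lungs, lower without overlap but short of the threshold (log2 difference -0.63, adjusted p = 0.0638).

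None of the other 5 isoforms of restricted tissue was called at either age. Ndufa4l2, a paralogue of Ndufa4 known as a hypoxia-inducible gene, had 31.9, 63.4 and 34.5 in tumours, against 80.9, 77.4 and 66.8 in wild type lungs. The groups did not overlap, and the log2 difference of -0.65 ± 0.20 was the largest negative one of all members (limma adjusted p = 0.0838). It passed the threshold in 3 of 18 alternatives. The values ran from -0.88 without tumour array 2 to -0.38 with a pseudocount of 64, and the adjusted p reached 0.222. In mutant lungs it had 221, 255 and 367, against 234, 250 and 248 in wild type, with overlapping groups. Cox4i2, an oxygen-responsive lung isoform of the regulatory subunit Cox4, had 93.7, 83.1 and 86.6 in tumours, against 84.7, 80.4 and 70.3 in wild type lungs (adjusted p = 0.379). In mutant lungs its log2 difference was -0.13 (adjusted p = 0.576). The testis isoforms Cox6b2, Cox7b2 and Cox8c had log2 differences of -0.32, 0.03 and 0.05 in tumours (adjusted p = 0.451, 0.908 and 0.763). Cox7b2, read by a dim probe set, had the most negative difference of all members in mutant lungs (-0.57, adjusted p = 0.185).

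In complex I, 1 of 35 genes was called at each age (2.86%), a different one, beside 9.23% and 6.42% of all genes called higher. Ndufs4, an accessory subunit near the NADH-oxidising arm, had 1261, 1412 and 1351 in tumours, against 1009, 979 and 1096 in wild type lungs. The groups did not overlap, and the log2 difference was 0.38 ± 0.09 (1.3-fold, limma adjusted p = 0.0366). Its 3 dimmer probe sets gave log2 differences of 0.18, 0.12 and -0.17 and none was called, and the call was lost when any 1 array was left out. In mutant lungs Ndufs4 had 1037, 1140 and 1049, against 883, 962 and 864 in wild type, also without overlap (log2 difference 0.25, adjusted p = 0.062). Ndufa1, a small membrane subunit, was the one called at 7 months: 5330, 5401 and 5234 in mutant lungs, against 4286, 4317 and 4663 in wild type (1.2-fold, limma adjusted p = 0.0286). In tumours it had 5960, 5708 and 5690, against 4983, 5060 and 5152 in wild type lungs, again without overlap, with an adjusted p of 0.131.

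Most complex I genes were slightly higher at both ages. The tumour arrays lay above all wild type arrays in 21 of 35 genes (60%), against 20.5% of all genes, and the mutant arrays did in 20 of 35 (57.1%), against 15.2% of all genes. The median log2 difference was 0.15 in tumours and 0.16 in mutants, and all 35 differences were above 0 at 7 months. The 6 core subunits measured, which form the arm outside the membrane and most of which hold the flavin or iron-sulphur clusters, had a median of 0.15 in tumours and 0.03 in mutants. Of these, Ndufs3 and Ndufs8 had the largest log2 differences in tumours, 0.27 and 0.28 (adjusted p = 0.0596 and 0.0882).

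Complex II, the only complex built wholly from nuclear genes, is also an enzyme of the citric acid cycle. Sdhd, one of its membrane anchors, was the one gene called, with 1471, 1599 and 1459 in mutant lungs, against 1212, 1313 and 1221 in wild type. The groups did not overlap, and the log2 difference was 0.27 ± 0.07 (1.21-fold, limma adjusted p = 0.0409). A second probe set gave a log2 difference of 0.30 at 7 months and of -0.03 in tumours, and the first one 0.12 in tumours (adjusted p = 0.36). Sdha, the flavoprotein, had 2522, 2523 and 2570 in tumours, against 2532, 2512 and 2368 in wild type lungs, a log2 difference of 0.04 (95% interval -0.14 to 0.22). Sdhb, the iron-sulphur subunit, had a log2 difference of 0.03 in tumours and 0.05 in mutants. Sdhc, the other anchor, had 0.13 in tumours and 0.14 in mutants, and neither passed the threshold (adjusted p = 0.344 and 0.272).

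In complex III, Uqcrq, a small subunit at the coenzyme Q side, was the one member called at both ages. It had 1937, 2153 and 1962 in tumours, against 1443, 1503 and 1678 in wild type lungs (log2 difference 0.39 ± 0.09, 1.31-fold, limma adjusted p = 0.0423). It had 1561, 1722 and 1658 in mutant lungs, against 1171, 1302 and 1316 in wild type (0.38 ± 0.07, 1.3-fold, limma adjusted p = 0.0147). Neither age showed overlap. Its call in tumours was lost when any array other than tumour array 2 was left out. Without tumour array 2, 4 members were called higher, the muscle isoforms of complex IV among them. So Uqcrq, Atp5g1 and Atp5md did not all stay called there. The probe set of Uqcrq carries the suffix for sequence shared between transcripts. The gene's second, dimmer probe set had log2 differences of -0.12 in tumours and -0.12 in mutants, and the third had 0.37 and 0.38, none called, so the probe sets disagree. Uqcr11, another small subunit, had 1646, 1838 and 1566 in mutant lungs, against 1262, 1397 and 1317 in wild type (1.27-fold, limma adjusted p = 0.0293). In tumours it had 2027, 2261 and 2032, against 1607, 1667 and 1782 in wild type lungs, without overlap but short of the threshold (1.25-fold, adjusted p = 0.0585). The core subunits Uqcrc1, Uqcrc2 and Uqcrfs1 had log2 differences of 0.24, 0.15 and 0.15 in tumours and 0.12, 0.01 and 0.14 in mutants, none called.

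In complex V, the ATP synthase, 2 of 17 genes were called at each age (11.8%), beside 9.23% and 6.42% of all genes called higher. Atp5g1, which encodes the same mature c subunit of the rotor ring as Atp5g2 and Atp5g3, had 1252, 1437 and 1304 in tumours, against 1037, 1021 and 1068 in wild type lungs (1.27-fold, limma adjusted p = 0.0427). Atp5g2 and Atp5g3 had log2 differences of 0.06 and 0.05 in tumours, against 0.35 for Atp5g1. At 7 months Atp5g1 had 886, 1006 and 849 in mutant lungs, against 821, 848 and 882 in wild type, with overlapping groups. Atp5md, a small membrane subunit, had 4036, 3839 and 3783 in tumours, against 2963, 3072 and 3165 in wild type lungs (1.27-fold, limma adjusted p = 0.0336). In mutant lungs it was 1.18-fold higher without overlap (adjusted p = 0.0585). The calls of Atp5g1 and Atp5md in tumours were lost when any array other than tumour array 2 was left out. Without tumour array 2, 4 members were called higher, the muscle isoforms of complex IV among them. So Atp5g1, Atp5md and Uqcrq did not all stay called there.

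Atp5e, the epsilon subunit of the central stalk, had 2318, 2487 and 2310 in mutant lungs, against 1787, 1942 and 1916 in wild type (1.26-fold, limma adjusted p = 0.014). In tumours it had 2781, 2989 and 2899, against 2215, 2297 and 2542 in wild type lungs (1.23-fold, adjusted p = 0.0698). The groups were apart at both ages. Atp5mpl, another small membrane subunit, had 1668, 1663 and 1783 in mutant lungs, against 1228, 1362 and 1463 in wild type (1.26-fold, limma adjusted p = 0.0349). In tumours it was 1.08-fold higher with overlapping groups. The catalytic subunits Atp5a1 and Atp5b had log2 differences of 0.07 and 0.13 in tumours and 0.10 and 0.13 in mutants, none called. Atp5h, a subunit of the peripheral stalk, was lower on all tumour arrays (5198, 5367 and 4861) than on the wild type arrays (5661, 5603 and 5598), with an adjusted p of 0.313.

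Promoters of 3 members that rose together at 7 months are shown because each holds a match to the ETS motif CCGGAAG, the kind bound by GABPA (nuclear respiratory factor 2), a regulator of respiratory chain genes. Sequences are the 250 bases before the start (RefSeq, GRCm38.p6), and capitals mark that motif on either strand and, in Sdhd, also the NRF1 motif (GCGCA and GCGC with any base between).
Atp5e (chr2:174464102-174464351, - strand): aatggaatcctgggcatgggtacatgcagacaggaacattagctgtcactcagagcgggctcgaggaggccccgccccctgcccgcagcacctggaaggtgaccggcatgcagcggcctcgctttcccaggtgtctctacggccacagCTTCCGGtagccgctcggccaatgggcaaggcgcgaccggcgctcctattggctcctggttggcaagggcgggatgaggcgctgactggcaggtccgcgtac
Sdhd (chr9:50603850-50604099, - strand): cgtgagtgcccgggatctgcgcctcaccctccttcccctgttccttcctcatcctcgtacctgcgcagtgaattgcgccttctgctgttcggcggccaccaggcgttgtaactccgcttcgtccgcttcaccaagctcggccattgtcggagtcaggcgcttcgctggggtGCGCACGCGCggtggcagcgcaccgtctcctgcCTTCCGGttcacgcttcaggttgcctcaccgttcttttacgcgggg
Uqcr11 (chr10:80406822-80407071, - strand): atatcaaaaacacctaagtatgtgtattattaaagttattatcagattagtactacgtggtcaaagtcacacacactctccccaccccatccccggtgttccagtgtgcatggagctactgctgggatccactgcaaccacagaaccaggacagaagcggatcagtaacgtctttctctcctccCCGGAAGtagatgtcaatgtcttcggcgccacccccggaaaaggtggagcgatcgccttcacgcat
The ETS motif was found in 12 of the 66 members with a promoter in the table (18.2%), against 10.2% of all protein-coding genes. Of these 12, 3 were called at 7 months, 0 at 12 months, and 9 at neither age. The NRF1 motif was found in 11 members (16.7%), against 5.84% of all genes, and 1 of the 11 was called, Sdhd. The motif TGACCTTG of the estrogen-related receptors was found in 3 members (4.55%), against 1.34% of all genes. The core of the muscle factor MEF2 (CTA and TAG with any 4 bases between) was found in 1 member (1.52%), against 3.56%, the TATAAA box in 7 (10.6%), against 13.7%, and the E box in 42 (63.6%), against 66.3%. Both strands were searched in each case, the ETS and NRF1 matches in Sdhd do not overlap, and a match is a letter string, not a measured site.

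Seen array by array, the members' mean was higher on each tumour and mutant array than on the wild type arrays of its age. The mean over all genes had the same order at a smaller size: 0.03, 0.05 and 0.05 on the tumour arrays, against at most 0.01 on the wild type arrays, and 0.03, 0.05 and 0.04 on the mutant arrays, against at most 0.02. Averaged over the 73 members that are not isoforms of restricted tissue, the deviation from the wild type mean was 0.09, 0.20 and 0.11 on the tumour arrays, against -0.02, -0.02 and 0.04 on the wild type arrays. At 7 months it was 0.12, 0.20 and 0.11 on the mutant arrays, against -0.04, 0.02 and 0.03 on the wild type arrays. Array 2 was the highest in both groups. By complex, the medians in tumours were 0.15 for complex I, 0.08 for II, 0.15 for III, 0.09 for IV and 0.09 for V. In mutants they were 0.16, 0.11, 0.13, 0.09 and 0.13 in the same order. Of 10 complex IV genes without the restricted isoforms, 0 were called at either age by limma, with 0 and 2 at an unadjusted p under 0.05 in tumours and mutants.

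**Figure D4:**
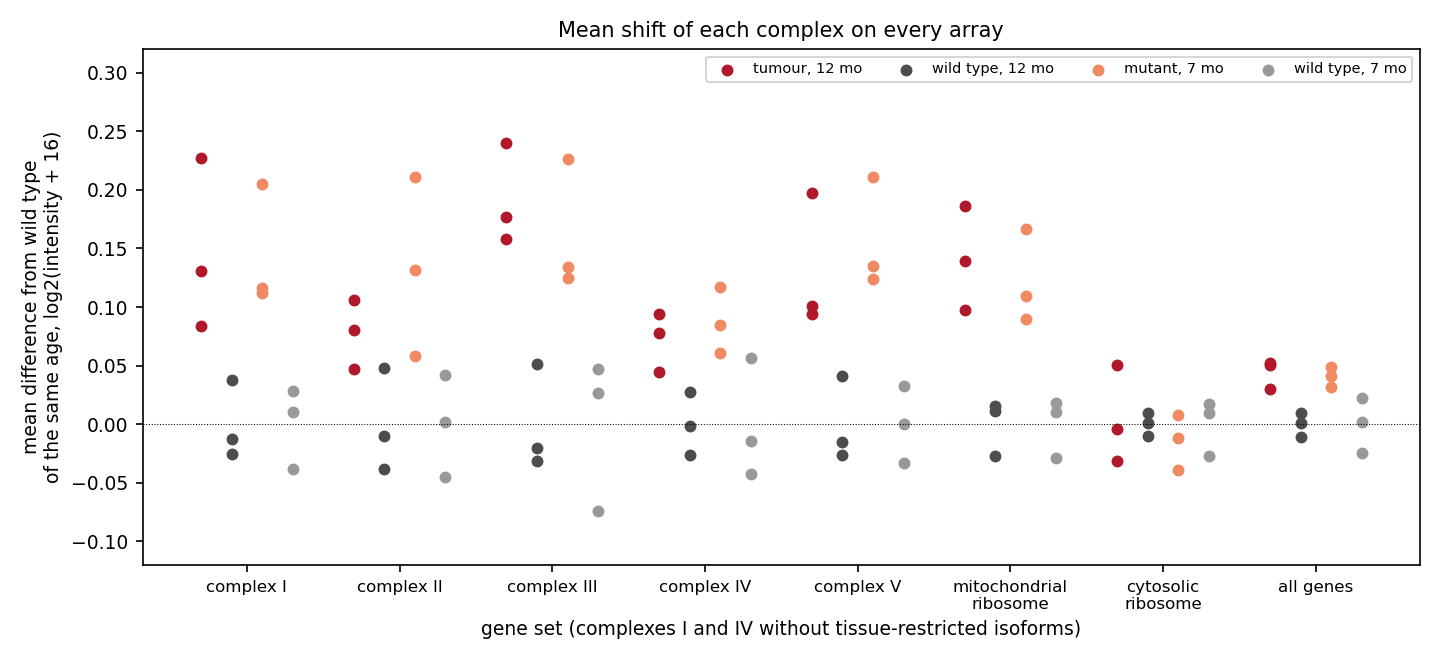
Mean difference from the wild type mean of the same age, on the log2(intensity + 16) scale, on each array for the 5 complexes (I and IV without isoforms of restricted tissue), mitochondrial and cytosolic ribosomal proteins and all genes. Tumour arrays and mutant arrays lie above the wild type arrays in complexes I, III, IV and V and in the mitochondrial ribosome, at up to 0.24, while the cytosolic ribosome overlaps.

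The effect at 12 months was then set against the effect at 7 months in 1 contrast over all 15 arrays. For this contrast limma called 0 of 81 members in either direction, beside 1.75% of all genes called higher and 1.41% called lower, and 5 members had an unadjusted p under 0.05. The lowest adjusted p was that of Cox6a2, whose log2 effect was 1.13 ± 0.29 larger in tumours (adjusted p = 0.06). Cox8b was 1.28 ± 0.38 larger and Cox7a1 1.07 ± 0.42 larger in tumours (adjusted p = 0.0864 and 0.188). Ndufa4l2 had a difference between the effects of -0.82 ± 0.27 (adjusted p = 0.118), and Atp5g1 one of 0.25 ± 0.11 (adjusted p = 0.248). The second probe set of Cox6a2 gave a difference between the effects of 1.37, with an adjusted p of 0.0476 over all probe sets, and the first one 1.13 with 0.0644 over the same probe sets. So the muscle isoforms were called in tumours and not in mutant lungs, but in the test over genes the difference between the effects did not pass the threshold for any of them, and of their probe sets only the second one of Cox6a2 passed. The median difference over the members was -0.01. In this contrast the age, the tissue (tumour or lung) and the set of arrays change together and cannot be told apart.

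The rest of the oxidative machinery was read from gene lists. Counts in this and the following lists stand beside 9.23% of all genes called higher in tumours and 6.42% in mutants. Of 42 assembly factors, 5 were called higher in tumours (11.9%) and 4 in mutants (9.52%), with medians of 0.10 and 0.10 on the log2 scale. Nubpl, which inserts iron-sulphur clusters into complex I, was 1.72-fold higher in tumours and 1.42-fold in mutants (limma adjusted p = 0.0077 and 0.00894). Uqcc2, an assembly factor of complex III, was 1.37-fold and 1.26-fold higher (adjusted p = 0.0162 and 0.0471). Sco2, which delivers copper to complex IV, was called in mutants (1.39-fold, adjusted p = 0.00195). Among 14 electron carriers and coenzyme Q genes, 0 were called in tumours, where the lowest adjusted p was 0.0645, and 3 (21.4%) in mutants. They were Coq4 and Coq3 of coenzyme Q synthesis at 1.41-fold and 1.35-fold and Etfa, of the electron transfer flavoprotein, at 1.29-fold.

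Mitochondrial ribosomal proteins, which make the mitochondrially encoded subunits, had medians in the range of those of the complexes. Of 76 genes 5 were called higher in tumours (6.58%) and 6 in mutants (7.89%), and the medians were 0.15 and 0.11. Mrps6 and Mrpl39 were called at both ages. The 49 cytosolic ribosomal proteins had medians of -0.02 at both ages with 0 calls by limma, and 1 and 3 genes at an unadjusted p under 0.05 in tumours and mutants. ND5, the only mitochondrially encoded subunit with a usable probe set, had log2 differences of 0.04 at both ages (adjusted p = 0.806 and 0.849).

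Other lists covered the pathways that supply fuel. Of 15 glycolysis genes 5 (33.3%) were called higher in tumours and 1 lower, with a median log2 difference of 0.34. The higher ones included Tpi1, triosephosphate isomerase (1.59-fold, adjusted p = 0.01), and Pgk1, phosphoglycerate kinase (1.3-fold, 0.026), and the lower one was Pfkfb3, an activator of glycolysis (log2 difference -0.81, adjusted p = 0.0356). None was called in mutants, where the median was 0.14 and 8 had an unadjusted p under 0.05. Of 22 genes of pyruvate dehydrogenase and the citric acid cycle, 0 were called in tumours and 2 (9.09%) in mutants. The 2 were Pdk3, a kinase that inhibits pyruvate dehydrogenase, and Suclg1, of succinyl-CoA ligase. Of 16 fatty acid oxidation genes and 23 import genes, 0 were called at either age, and 1 to 4 genes of each list had an unadjusted p under 0.05.

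Among 21 transcriptional regulators of mitochondrial genes, 1 (4.76%) was called in tumours and 0 in mutants. It was Esrrg, the estrogen-related receptor found in heart and other oxidative tissues, 1.67-fold higher in tumours (limma adjusted p = 0.0313). Ppargc1a, the coactivator that drives mitochondrial biogenesis, had a log2 difference of 0.46 in tumours and 0.22 in mutants (adjusted p = 0.0514 and 0.273). Esrrg had 107, 119 and 114 in mutant lungs, against 85.1, 66.9 and 93.8 in wild type, without overlap but short of the threshold (1.33-fold, adjusted p = 0.0691). Nrf1 and Gabpa, whose motifs were searched above, had small differences below 0: Nrf1 stood at -0.10 in tumours and -0.13 in mutants, and Gabpa at -0.20 and -0.13, none called. Tfam, which packages and transcribes mitochondrial DNA, stood at -0.01 and -0.02.

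**Figure D5:**
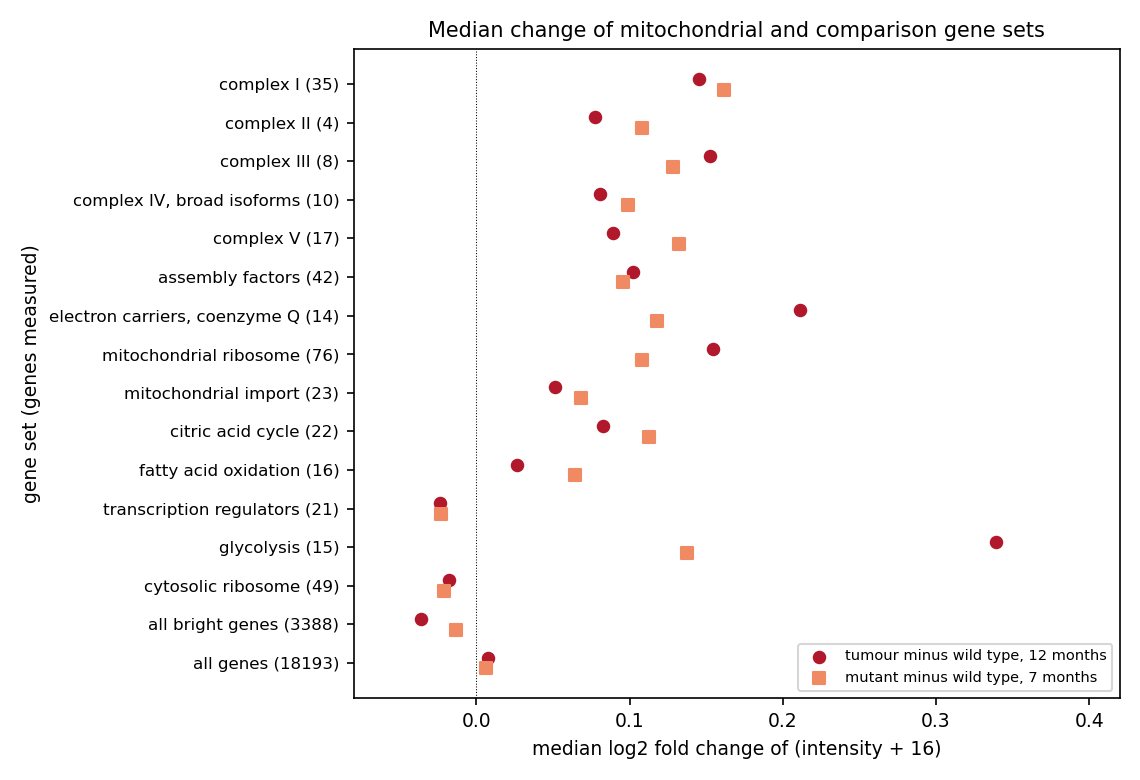
Median log2 fold change of (intensity + 16) over the measured genes of each complex and of other gene lists, for tumour against wild type lung at 12 months (circles) and mutant against wild type lung at 7 months (squares), with the number of genes in parentheses. The 5 complexes lie between 0.08 and 0.16, the cytosolic ribosome and all genes near 0, and glycolysis in tumours is farthest out at 0.34.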

How the data were processed

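RNA of 15 mouse lung samples was measured on single-colour Affymetrix arrays after 3' IVT labelling, per the labels' protocols, which favours the 3' end of transcripts. The authors deposited 1 linear intensity for each of 45101 probe sets and array. Their summarization and scaling are not stated in the labels. Another 7-month group of 3 arrays, which helps to estimate the variance, and a further allele of the mutant genotype are not reported here.

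Gene symbols came from the platform annotation, and the 34945 probe sets with 1 symbol were kept, without controls. Each gene was read by its probe set with the highest mean log2(intensity + 16) over the 15 arrays. This pseudocount makes fold changes understate the change of dim genes: 17.1% to 21.1% of probe sets on an array lay below 16. Groups were compared two-sided with limma 3.58.1 (lmFit and eBayes) in R 4.3.3, on 6 arrays at 12 months, on 9 arrays at 7 months and on all 15 arrays for the difference between the effects. Adjusted p-values are Benjamini-Hochberg over all 18193 genes unless said otherwise. The steps were tested on simulated data. Tables were made in Python 3.11.15.

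The members and the gene lists were chosen with earlier results of these data known. The rule for named members took the isoforms of restricted and broad tissue, the 4 Sdh genes, up to 3 called members by adjusted p in each other complex and direction, and the largest difference in each complex. Of other lists it took up to 3 called genes. Genes outside the rule, among them Ckmt2, Ckmt1, Ucp3, Cidea, Mrpl39, Ppargc1a, Nrf1, Gabpa, Tfam and uncalled members, were named after their values were seen. Within the reported groups, pairs of arrays had correlations of 0.982 to 0.994 across genes and none were identical. The number of arrays limits the precision. Alternatives tried were the scaling (quantile, median centring), pseudocounts of 1 and 64, dim genes left out, the mean of probe sets, shared-sequence probe sets left out, array weights, a variance trend with robust fitting, other sets of arrays, the replicate number as a block, and each array left out in turn.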

Additional observations from a re-analysis of the deposited data

How the results depend on the processing

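Counts of called members moved with the settings, and 3 arrays a group limit what can be called. Against 7 members higher in tumours, 3 were called after median centring, 4 with a pseudocount of 1, 4 with the mean of probe sets, 4 against the wild type array of the same sex, 12 with a variance trend and robust fitting, and 19 in a fit of all 15 arrays. Leaving out 1 array gave 2 to 4, and except without tumour array 2 the members called were muscle isoforms alone. Against 0 lower, array weights gave 1, the fit of all 15 arrays gave 1 and leaving out an array 0 to 1. Against 6 members higher in mutants, 2 were called after median centring, 17 with a pseudocount of 64, 15 without dim genes, 3 without shared-sequence probe sets, 21 with trend and robust fitting, and 0 in a fit of the 2 groups alone. Leaving out an array gave 0 to 6, the 0 without mutant array 2. The shares of members under the largest of these, 21% and 25.9%, stood against 7.45% and 7.52% of all genes, and 19.2% without dim genes against 10.7%. For the difference between the ages, against 0 higher, quantile normalization, a pseudocount of 64, leaving out dim genes, the mean of probe sets, and trend and robust fitting gave 1 each, and leaving out an array 0 to 3, the 3 without wild type array 2 at 7 months. Against 0 lower, leaving out an array gave 0 to 1. Over all genes, median centring changed the calls to 1327 higher and 1789 lower in tumours (1679 and 1095 without it) and to 916 and 1025 in mutants (1168 and 253).

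Cox6a2 kept its call in tumours in 18 of 18 alternatives, Cox7a1 in 17 and Cox8b in 15. The median of the members stayed above that of all genes in each alternative, by 0.10 to 0.18 in tumours and 0.11 to 0.16 in mutants. The replicate numbers at 7 months are only numbers: same-numbered mutant and wild type arrays had correlated deviations of -0.13, 0.02 and -0.08, and with the replicate block 4 members were called higher.

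Signs that turned belonged to log2 differences that were not called, except that of Uqcrq, which was called. Most of those not called were small, but Cox7a1 in mutants stood at 0.29 with an SE of 0.33. Without shared-sequence probe sets Uqcrq stood at -0.12 in tumours and -0.12 in mutants, and Sdha at -0.047 and Sdhd at -0.029 in tumours. After median centring, tumours had Cox4i1 at -0.013, Cox7a2 at -0.022, Cox7b2 at -0.069, Cox8a at -0.079, Cox8c at -0.047, Sdha at -0.059 and Sdhb at -0.068, and mutants had Cox6a1 at -0.040, Cox6b2 at -0.037, Cox7a2 at -0.012, Cox8b at -0.0006, Sdha at -0.019 and Sdhb at -0.043. Quantile normalization gave Cox7b2 at -0.030 and Cox8c at -0.047 in tumours, and Cox6b2 at -0.031 and Cox8b at -0.0011 in mutants. The mean of probe sets gave Sdha at -0.12, and array weights gave Sdhb at -0.0011, in tumours. Leaving out 1 array at a time gave ranges across 0 in tumours for Cox7b2 (-0.081 to 0.15), Cox6a1 (-0.032 to 0.042), Cox8a (-0.0003 to 0.051), Cox8c (-0.024 to 0.090) and Sdhb (-0.025 to 0.091). It did so in mutants for Cox7a1 (-0.098 to 0.62), Cox8b (-0.17 to 0.35), Cox6b2 (-0.036 to 0.15) and Ndufa4l2 (-0.036 to 0.31). The cause was not tested in each case.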
